A study of Mus musculus with 18 samples.

Results

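The genes described here are Trp53, which encodes the transcription factor p53, and 9 genes that p53 controls or that control it: Mdm2, Mdm4, Phlda3, Ccng1, Trp53inp1, Zmat3, Aen, Eda2r and Ei24. They were chosen by name, as all array probes whose transcript accession belongs to one of these 10 mouse symbols, and they are 10 genes beside the 20812 tested in all. A total of 14 probes measured them, and 9 of the 10 genes were tested. Eda2r, a receptor of the tumour necrosis factor receptor family, has 2 probes, and neither was well above background in any of the 18 samples, so it has no comparison.

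The samples were bone-marrow-derived macrophages of male C57BL/6J mice aged 8 weeks, grown from femur marrow for 7 days with macrophage colony stimulating factor, and measured on single-colour Agilent arrays. There were 6 groups of 3 samples. Macrophages from mice lacking PHD3 (genotype PHD3-/-, the gene Egln3) were kept at an oxygen label of 1 with control feeding, starved at an oxygen label of 20, or left as controls at an oxygen label of 20 with control feeding. Wild-type macrophages were given the same conditions. The labels state no unit for oxygen and do not say whether cells or mice were starved, nor how the knockout was made, so oxygen 1 is called low oxygen here by its label alone. The series title places the question in the survival of macrophages under stress. The design names 3 mice per group, and whether samples with one number share a mouse is not given, so p-values measure the spread between these samples.

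p53 binds DNA and switches on genes of cell cycle arrest, DNA repair and cell death after DNA damage and other stress. Its level is held down by Mdm2, a ubiquitin ligase that marks p53 for degradation and is itself switched on by p53, and by Mdm4, a relative of Mdm2 that binds p53 and blocks its activity. p53 is regulated largely through the stability and modification of the protein, which arrays do not measure. PHD3 is a prolyl hydroxylase that uses oxygen and is best known for acting on hypoxia-inducible factors.

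Promoter sequences were available for 8 of the 10 genes, from RefSeq on GRCm38.p6, as 250 bases before to 50 bases after the annotated start. They were searched for the p53 motif of 10 bases, which reads the same on both strands, and for the pair of such motifs at most 13 bases apart that forms the complete p53 site. The single motif was found in Trp53, Mdm2, Ccng1, Aen and Ei24 and not in Mdm4, Phlda3 or Eda2r, against 8.36% of all 32851 promoters in the same table. The complete site was in none of the 8 genes and in 0.0731% of all promoters. Shown are Mdm2, the 1 gene that was higher under both stresses, Ccng1 and Phlda3, which moved in opposite directions under them, and Aen, which was lower at low oxygen alone. Any p53 motif is in capitals, and each sequence runs 5′ to 3′ on the strand of its gene. Mdm2 lies on the minus strand at chr10:117710709-117711008, Ccng1 on the minus strand at chr11:40755237-40755536, Aen on the plus strand at chr7:78895677-78895976 and Phlda3 on the plus strand at chr1:135765835-135766134.
Mdm2: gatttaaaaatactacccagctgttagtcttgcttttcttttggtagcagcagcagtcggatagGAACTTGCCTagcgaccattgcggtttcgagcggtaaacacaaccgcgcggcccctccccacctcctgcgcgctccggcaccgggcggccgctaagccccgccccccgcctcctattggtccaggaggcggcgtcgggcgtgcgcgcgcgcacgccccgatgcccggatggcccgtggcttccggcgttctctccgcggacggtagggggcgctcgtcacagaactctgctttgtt
Ccng1: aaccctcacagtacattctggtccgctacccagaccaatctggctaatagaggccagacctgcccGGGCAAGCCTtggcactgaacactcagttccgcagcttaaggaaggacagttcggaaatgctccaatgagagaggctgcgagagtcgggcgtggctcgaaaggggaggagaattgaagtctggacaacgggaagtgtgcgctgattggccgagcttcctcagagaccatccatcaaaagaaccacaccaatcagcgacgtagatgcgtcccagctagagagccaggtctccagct
Aen: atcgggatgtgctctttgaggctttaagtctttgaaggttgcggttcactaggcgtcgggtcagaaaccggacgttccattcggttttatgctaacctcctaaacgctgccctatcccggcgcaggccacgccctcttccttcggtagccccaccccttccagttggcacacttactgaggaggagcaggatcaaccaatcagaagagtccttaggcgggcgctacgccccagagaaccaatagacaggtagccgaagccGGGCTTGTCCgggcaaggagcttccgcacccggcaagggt
Phlda3: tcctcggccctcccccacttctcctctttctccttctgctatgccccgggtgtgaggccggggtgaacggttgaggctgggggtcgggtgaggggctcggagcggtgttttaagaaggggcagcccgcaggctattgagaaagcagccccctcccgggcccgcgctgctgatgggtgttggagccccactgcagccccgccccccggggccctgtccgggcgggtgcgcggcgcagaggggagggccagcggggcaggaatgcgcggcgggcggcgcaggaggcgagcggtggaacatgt
The motif lies at bases -186 to -177 from the start in Mdm2, at -185 to -176 in Ccng1 and at 11 to 20 in Aen. The hypoxia-inducible factor core ACGTG or GCGTG, searched on both strands, occurred in 43.8% of all promoters, and its matches numbered 2 in Mdm2, 1 in Ccng1, 1 in Aen and 0 in Phlda3. Aen has 2 annotated starts, and the promoter of the first is shown. From its second start the same p53 motif lies at -121 to -112, and that promoter holds 2 matches of the hypoxia-inducible factor core. These are letter matches in a short window. The known p53 sites of Mdm2 lie in its first intron, outside it.

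Between 56.07% and 65.43% of the 43020 gene spots per array were well above background, and no spot was saturated. Levels are given in log2 units above or below the array's 75th percentile, and levels of different probes are not set against each other. All 14 probes but the 2 of Eda2r were well above background in all 18 samples. Macrophage markers were well above background in all samples for 8 of 8 genes on the array. Egln3 averaged 2.85 in knockout cells at low oxygen and -3.95 in knockout controls, against 2.90 and -3.46 in the same conditions of wild type, and knockout minus wild type was -0.22 averaged over conditions (95% interval -0.41 to -0.02, limma adjusted p = 1). Where its probes lie relative to the deleted part is not given, so this signal does not check the genotype labels. Knockout control 3 (mean r across genes 0.9908), wild-type control 1 (0.9915) and starved wild-type sample 3 (0.9901) each correlated least with their own group. Knockout sample 3 at low oxygen was also the lowest of its group (0.9924, against 0.9933 and 0.9934). All 18 samples lay between 0.9892 and 0.9936. Calls of the 9 genes that changed with the first 3 of these samples left out together are given both ways. Samples 2 and 3 of wild type at low oxygen had the lowest values (0.9892 each), and leaving out either changed no call of the 9 genes.

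**Figure D1:**
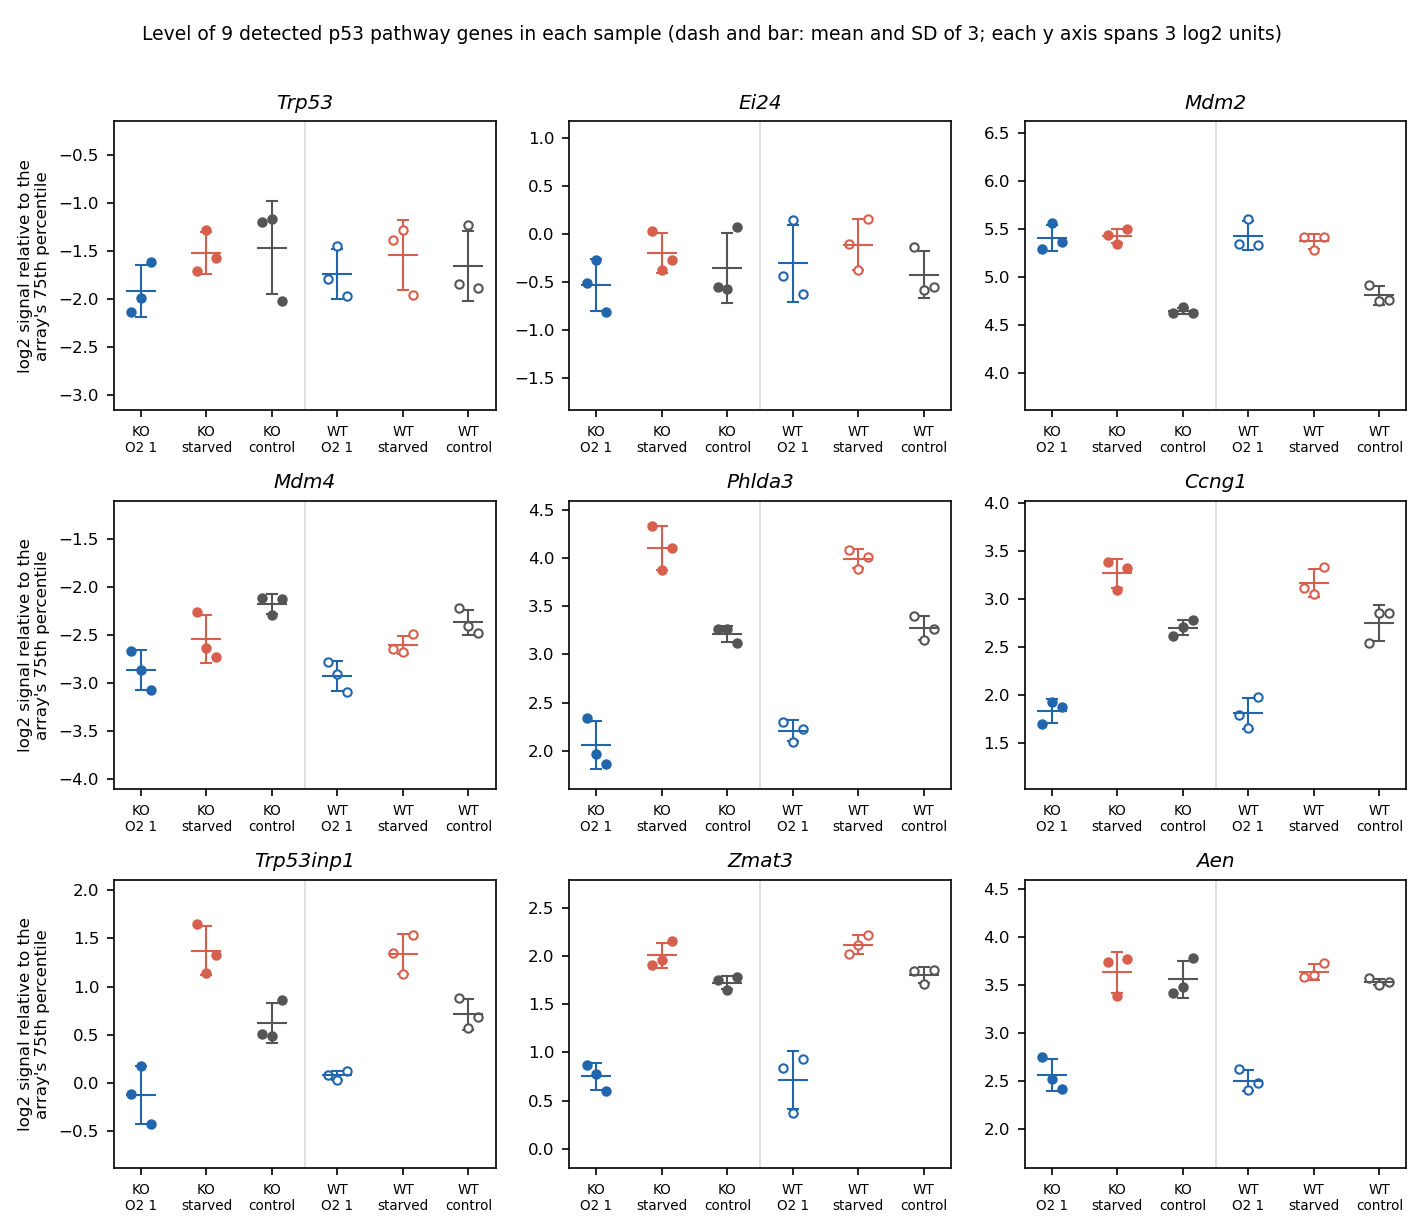
Level of the 9 tested genes in each of 18 samples, as log2 signal minus the array's 75th percentile (y axis, spanning 3 log2 units in each panel), by group (x axis; filled points are knockout, open points wild type; dash and bar are mean and SD of 3 samples). Mdm2 sits higher in all 12 stressed samples (5.28 to 5.61) than in the 6 controls (4.63 to 4.92), while Phlda3, Ccng1 and Trp53inp1 are highest when starved and lowest at oxygen 1 in both genotypes.

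At low oxygen, 6 of the 9 tested genes fell and 1 rose, and the same 7 genes did so in both genotypes. Mdm2 rose 1.69-fold in knockout cells and 1.54-fold in wild-type cells. Phlda3, Ccng1, Zmat3, Aen, Mdm4 and Trp53inp1 fell between 1.61-fold and 2.22-fold in knockout cells and between 1.47-fold and 2.14-fold in wild-type cells. Trp53 itself and Ei24 did not pass the threshold in either genotype. Of all 20812 genes, 18.3% were lower and 21.4% higher past the threshold in knockout cells, and 18.1% and 20.5% in wild-type cells, or 39.7% and 38.6% in either direction. Low-oxygen and control samples did not overlap for 7 of the 9 genes in each genotype, as for 49% of all genes in knockout cells and 49.9% in wild-type cells. The median log2 change of the 9 genes was -0.75 in knockout cells and -0.63 in wild-type cells, against 0.03 over all genes in each. In these bulk samples, fewer cells of a type and less RNA per cell cannot be told apart.

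Trp53 read -2.13, -1.99 and -1.61 in knockout cells at low oxygen, against -1.20, -1.17 and -2.02 in knockout controls. The control values lie apart from each other, with replicate 3 as low as the low-oxygen samples, and the groups overlap. The difference was -0.44 ± 0.26 (SE, adjusted p = 0.193), and it was -0.72 without that control (adjusted p = 0.0317) and -0.72 with knockout control 3, wild-type control 1 and starved wild-type sample 3 left out together (adjusted p = 0.0203). Wild-type cells read -1.79, -1.45 and -1.97 at low oxygen, against -1.84, -1.23 and -1.88 in controls, which spans the same range, and the difference was -0.08 ± 0.26 (adjusted p = 0.834). The 95% interval of -0.63 to 0.47 in wild type holds changes of either sign.

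Mdm2 read 5.29, 5.56 and 5.37 in knockout cells at low oxygen, against 4.63, 4.69 and 4.63 in knockout controls. In wild type it read 5.35, 5.61 and 5.34 at low oxygen, against 4.92, 4.75 and 4.76 in controls. Every low-oxygen sample lay above every control, with log2 differences of 0.76 ± 0.10 in knockout cells (SE, adjusted p = 2.41e-05) and 0.63 ± 0.10 in wild-type cells (adjusted p = 0.000154). Mdm4, the other inhibitor of p53, went the opposite way. It read -2.66, -2.86 and -3.07 in knockout cells at low oxygen, against -2.11, -2.29 and -2.12 in controls. Wild-type cells read -2.78, -2.90 and -3.09 at low oxygen, against -2.22, -2.40 and -2.48. The groups were apart in both genotypes, with differences of -0.69 ± 0.14 in knockout cells (adjusted p = 0.000984) and -0.56 ± 0.14 in wild-type cells (adjusted p = 0.00484). A second, dimmer Mdm4 probe fell by 0.34 in knockout cells and by 0.54 in wild-type cells. Both calls of Mdm4 ended when the background was corrected by normexp, at -0.51 in knockout cells (adjusted p = 0.0519) and -0.35 in wild-type cells (adjusted p = 0.202).

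Phlda3, a p53 target that restrains the survival kinase Akt, read 2.34, 1.97 and 1.86 in knockout cells at low oxygen, against 3.26, 3.26 and 3.12 in knockout controls. Wild-type cells read 2.30, 2.09 and 2.23 at low oxygen, against 3.40, 3.15 and 3.27 in controls. No low-oxygen sample reached a control, and the differences were -1.15 ± 0.14 in knockout cells (adjusted p = 9.46e-06) and -1.07 ± 0.14 in wild-type cells (adjusted p = 2.11e-05). Ccng1, or cyclin G1, which brings a phosphatase to Mdm2, read 1.70, 1.93 and 1.88 in knockout cells at low oxygen, against 2.62, 2.71 and 2.78 in controls. In wild-type cells Ccng1 read 1.80, 1.66 and 1.98, against 2.54, 2.86 and 2.86. Again the conditions did not overlap, at -0.87 ± 0.12 in knockout cells (adjusted p = 5.65e-05) and -0.94 ± 0.12 in wild-type cells (adjusted p = 2.94e-05).

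Zmat3, a zinc finger protein that binds RNA, read 0.87, 0.78 and 0.60 in knockout cells at low oxygen, against 1.75, 1.65 and 1.78 in controls. It read 0.84, 0.37 and 0.93 in wild-type cells at low oxygen, against 1.85, 1.71 and 1.86 in controls. Replicate 2 of wild type at low oxygen was the lowest of all 18 samples, and both genotypes differed from their controls, by -0.97 ± 0.13 (knockout, adjusted p = 3.42e-05) and -1.09 ± 0.13 (wild type, adjusted p = 1.22e-05). Aen, a nuclease named for its part in apoptosis, read 2.75, 2.52 and 2.42 in knockout cells at low oxygen, against 3.42, 3.48 and 3.78 in controls. Its wild-type values were 2.63, 2.41 and 2.48, against 3.57, 3.50 and 3.53. Aen thus fell by 0.99 in knockout cells (SE 0.12, adjusted p = 1.64e-05) and by 1.03 in wild-type cells (SE 0.12, adjusted p = 1.28e-05), and its second probe fell by 1.03 and 1.07.

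Trp53inp1, a nuclear protein that acts with p53 in stress and autophagy, read -0.12, 0.17 and -0.43 in knockout cells at low oxygen, against 0.51, 0.49 and 0.86 in controls. Wild-type values were 0.08, 0.03 and 0.12 at low oxygen, against 0.88, 0.57 and 0.68 in controls. It fell by 0.75 in knockout cells (SE 0.17, adjusted p = 0.00245) and by 0.63 in wild-type cells (SE 0.17, adjusted p = 0.00805), and its second probe fell by 0.66 and 0.58. Ei24, a membrane protein of the endoplasmic reticulum that takes part in autophagy, ranged from -0.81 to -0.27 in knockout cells at low oxygen and from -0.57 to 0.07 in knockout controls, and from -0.62 to 0.14 and -0.58 to -0.14 in the same wild-type groups. Its groups overlap and its differences were -0.18 (95% interval -0.68 to 0.31) in knockout cells and 0.12 (-0.38 to 0.61) in wild-type cells.

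Marker signal of other cell types moved with low oxygen. Of 7 neutrophil markers on the array, 4 were lower past the threshold in knockout cells and 5 in wild-type cells, and their summed signal, as a multiple of the 75th percentile, was 5.16 to 9.59 in knockout cells at low oxygen against 9.67 to 15.8 in controls, and 6.1 to 9.67 against 12 to 18.7 in wild-type cells. The summed signal of 5 erythroid and megakaryocyte markers was 15.5 to 32.6 against 6.26 to 7.13 in knockout cells and 15.9 to 33.2 against 5.70 to 6.31 in wild-type cells; Pf4 was the 1 of the 5 that was well above background in all 18 samples, and Itga2b was so in 0. Of 7 stromal and endothelial markers, 2 were higher and 1 lower past the threshold in knockout cells, and 3 higher and 0 lower in wild-type cells. Of 7 markers of mast cells, basophils and eosinophils, 4 were not well above background in any sample. Of 8 lymphocyte markers, 3 were well above background in all 18 samples and 5 were tested. Of these 5, 2 were lower past the threshold in each genotype and 0 higher. Of 4 dendritic cell markers tested, 0 passed in knockout cells, and 1 was higher and 0 lower in wild-type cells. The part of these cells in the changes of the p53 genes was not tested. Each of the 7 genes past the threshold kept its direction on the slides that held both conditions, which were 3 for knockout cells and 1 for wild-type cells, with Mdm2 between 0.55 and 0.79 and Phlda3 between -1.44 and -0.88 on the 3 knockout slides. These 3 are not separate comparisons, since low-oxygen sample 1 and control 1 of the knockout each had arrays on 2 of them.

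In starved cells 4 of the 9 tested genes rose, Mdm2, Phlda3, Ccng1 and Trp53inp1, the same 4 in both genotypes, and 0 fell. Phlda3 was 1.87-fold higher in starved knockout cells and 1.66-fold higher in starved wild-type cells than in their controls, and Mdm2 1.72-fold and 1.48-fold. Zmat3, Aen, Mdm4, Trp53 and Ei24 did not pass the threshold. Over all genes, 7.14% were higher and 6.38% lower past the threshold in starved knockout cells, and 6.49% and 6.02% in starved wild-type cells, or 13.5% and 12.5% in either direction. The median log2 change of the 9 genes was 0.29 in knockout cells and 0.31 in wild-type cells, against 0.01 and 0.02 over all genes. The starvation and low oxygen comparisons share their control samples.

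Mdm2 read 5.44, 5.35 and 5.50 in starved knockout cells, against 4.63, 4.69 and 4.63 in knockout controls, a difference of 0.78 ± 0.10 (SE, adjusted p = 8.62e-05). It read 5.42, 5.28 and 5.42 in starved wild-type cells, against 4.92, 4.75 and 4.76 in wild-type controls, a difference of 0.56 ± 0.10 (adjusted p = 0.00139). All 6 starved samples lay above all 6 controls. Mdm4 read -2.26, -2.63 and -2.73 in starved knockout cells, where replicate 1 reached into the control range of -2.29 to -2.11. Its difference was -0.36 ± 0.14 (adjusted p = 0.102), and -0.50 without that sample (adjusted p = 0.0283). In starved wild-type cells Mdm4 lay between -2.67 and -2.49, just below the controls at -2.48 to -2.22, with a difference of -0.24 ± 0.14 (adjusted p = 0.341).

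Phlda3 read 4.34, 3.88 and 4.11 in starved knockout cells, against 3.26, 3.26 and 3.12 in controls. Starved wild-type cells read 4.09, 3.89 and 4.01, against 3.40, 3.15 and 3.27. The starved samples lay above every control, by 0.90 ± 0.14 in knockout cells (adjusted p = 0.000389) and 0.73 ± 0.14 in wild-type cells (adjusted p = 0.0022). Ccng1 read 3.39, 3.1 and 3.32 in starved knockout cells, against 2.62, 2.71 and 2.78 in controls, and 3.12, 3.05 and 3.33 in starved wild-type cells, against 2.54, 2.86 and 2.86. It rose by 0.57 ± 0.12 in knockout cells (adjusted p = 0.00611) and by 0.41 ± 0.12 in wild-type cells (adjusted p = 0.0397), where the nearest samples of the groups were 3.05 and 2.86. Trp53inp1 read 1.65, 1.14 and 1.33 in starved knockout cells, against 0.51, 0.49 and 0.86 in controls. It read 1.35, 1.13 and 1.54 in starved wild-type cells, against 0.88, 0.57 and 0.68. The groups were apart in both genotypes, with rises of 0.75 ± 0.17 in knockout cells (adjusted p = 0.0074) and 0.63 ± 0.17 in wild-type cells (adjusted p = 0.0221), and the second probe rose by 0.71 and 0.65.

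In wild-type cells the call of Ccng1 ended without any 1 of the 6 samples compared (differences of 0.31 to 0.47) and was 0.23 (adjusted p = 0.31) with the same 3 samples left out together, and that of Trp53inp1 ended without control 2 or 3 or starved sample 1 or 3 (0.53 to 0.63) and without the 3 (0.62, adjusted p = 0.0574). With normexp background correction the starved wild-type cells had 0 genes of the 9 higher past the threshold and the starved knockout cells 2, Mdm2 and Phlda3. The wild-type differences were then 0.43 ± 0.17 for Mdm2, 0.62 ± 0.19 for Phlda3, 0.44 ± 0.19 for Ccng1 and 0.61 ± 0.20 for Trp53inp1 (SE, adjusted p between 0.0767 and 0.206).

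Zmat3 read 1.91, 1.96 and 2.16 in starved knockout cells, against 1.75, 1.65 and 1.78 in controls, and 2.02, 2.12 and 2.22 in starved wild-type cells, against 1.85, 1.71 and 1.86. Every starved sample was above its controls, yet the differences of 0.29 ± 0.13 in knockout cells (adjusted p = 0.193) and 0.31 ± 0.13 in wild-type cells (adjusted p = 0.158) missed the threshold. Groups that do not overlap were found for 5 of the 9 genes in knockout cells and 7 of 9 in wild-type cells, against 30.7% and 29.7% of all genes. Aen ranged from 3.39 to 3.77 in starved knockout cells and from 3.42 to 3.78 in controls, and from 3.58 to 3.73 and 3.50 to 3.57 in the wild-type groups. Its differences were 0.07 (95% interval -0.19 to 0.34) in knockout cells and 0.10 (-0.17 to 0.37) in wild-type cells. Trp53 ranged from -1.71 to -1.28 in starved knockout cells and from -1.95 to -1.28 in starved wild-type cells, within or next to the ranges of the controls, with differences of -0.05 and 0.12.

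Neutrophil marker signal was also lower in starved cells, at 5.65 to 9.05 against 9.67 to 15.8 in knockout cells and 7.16 to 9.29 against 12 to 18.7 in wild-type cells, and 4 and 5 of the 7 markers were lower past the threshold. Of 7 stromal and endothelial markers, 2 were lower past the threshold in knockout cells and 3 in wild-type cells, and 0 were higher. Their summed signal was 2.40 to 3.42 against 3.71 to 4.69 in knockout cells and 1.88 to 3.08 against 3.87 to 4.49 in wild-type cells. That of the 5 erythroid and megakaryocyte markers was 10.2 to 13.3 against 6.26 to 7.13 in knockout cells and 12.2 to 15.3 against 5.70 to 6.31 in wild-type cells, and of the 2 tested, 0 and 1 were higher past the threshold. Of 5 lymphocyte markers tested, 2 were lower past the threshold in each genotype and 0 higher. Of 4 dendritic cell markers tested, 0 passed in either genotype. The part of these cells in the changes of the p53 genes was not tested. On the 3 slides that held both conditions in each genotype, the 4 genes past the threshold were higher in starved cells throughout, with Mdm2 between 0.66 and 0.87 in knockout cells and between 0.49 and 0.66 in wild-type cells, and Ccng1 between 0.40 and 0.69 and between 0.19 and 0.58.

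**Figure D2:**
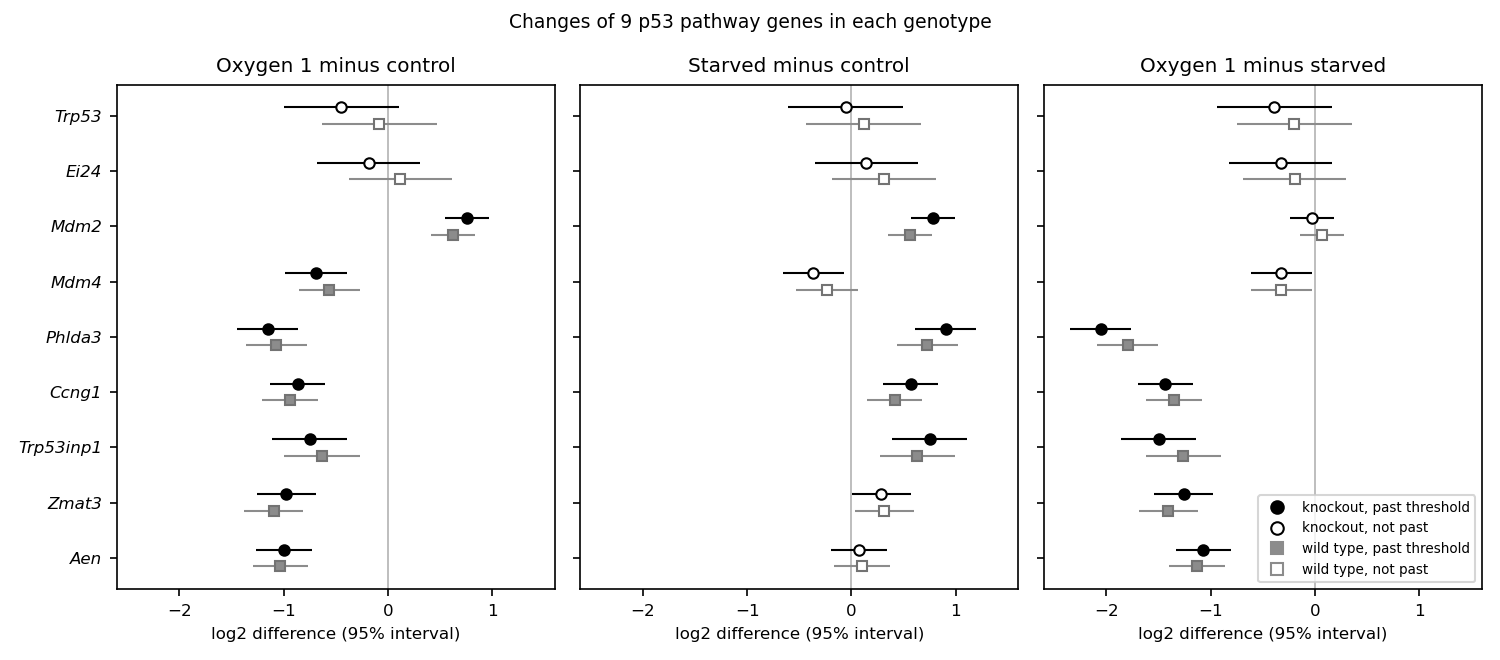
Log2 difference (x axis) of the 9 tested genes (rows) for low oxygen minus control, starved minus control, and low oxygen minus starved. Points are the fitted differences with 95% intervals, filled where the limma adjusted p is under 0.05 (circles knockout, squares wild type). Mdm2 is right of 0 in both of the first panels, whereas Phlda3, Ccng1 and Trp53inp1 are left of 0 at low oxygen and right of 0 when starved.

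Put against each other directly, low-oxygen and starved cells differed for 5 of the 9 genes in both genotypes, and all 5 were lower at low oxygen. Phlda3 was 4.15-fold lower at low oxygen than in starved cells of the knockout (log2 difference -2.05 ± 0.14, adjusted p = 3.92e-08) and 3.47-fold lower in wild type (-1.80 ± 0.14, adjusted p = 1.53e-07). Trp53inp1 was 2.82-fold and 2.40-fold lower, Ccng1 2.70-fold and 2.55-fold, Zmat3 2.40-fold and 2.65-fold, and Aen 2.10-fold and 2.19-fold lower in knockout and wild-type cells. Mdm2 was high under both stresses, its samples overlapped, and the difference was -0.03 (95% interval -0.24 to 0.18) in knockout cells and 0.06 (-0.15 to 0.28) in wild-type cells. Over all genes, 17.9% were lower and 19.2% higher past the threshold at low oxygen than in starved knockout cells, and 18.3% and 19.8% in wild-type cells, or 37.1% and 38.1% in either direction. The conditions did not overlap for 5 of the 9 genes in knockout cells and 6 in wild-type cells, as for 50.1% and 46.7% of all genes.

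Mdm4 was lower at low oxygen than in starved cells by 0.32 in both genotypes without passing the threshold (adjusted p = 0.0796 in knockout cells and 0.0765 in wild-type cells). With the replicate number as a block, the difference of -0.32 had a limma adjusted p of 0.0386 in knockout cells and 0.0375 in wild-type cells. Whether same-numbered samples share a mouse is not given. The knockout difference was -0.43 without replicate 1 at low oxygen (adjusted p = 0.0367) and -0.42 without starved replicate 3 (adjusted p = 0.0444). In each genotype, 3 of the 9 genes were lower at low oxygen and higher when starved past the threshold (Phlda3, Ccng1, Trp53inp1), as were 0.702% of all genes, and 1 was higher under both (Mdm2), as were 4.09% of all genes in knockout cells and 3.43% in wild-type cells. In wild type the starvation calls of Ccng1 and Trp53inp1 ended without single samples, and normexp ended all 4. Normexp also ended those of Ccng1 and Trp53inp1 in starved knockout cells. The remaining genes were 3 that were lower at low oxygen and not called when starved (Mdm4, Zmat3, Aen) and 2 called under neither (Trp53, Ei24).

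The order of the 6 groups showed the same contrast. For Phlda3, Ccng1, Trp53inp1 and Zmat3 the 2 starved groups stood highest, the 2 control groups next and the 2 low-oxygen groups lowest, with no overlap between conditions and with the genotypes overlapping within each condition. For Aen the 2 low-oxygen groups were apart below the other 4, of which neighbours in order of their means overlapped. The 4 stressed groups of Mdm2 overlapped each other and stood above the wild-type controls, which stood above the knockout controls. Neighbouring groups of Trp53, Ei24 and Mdm4 in order of their means overlapped throughout.

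Knockout and wild-type cells did not differ past the threshold in any of the 9 genes, in any condition or averaged over conditions. Averaged differences lay between -0.09 and 0.10, with 95% intervals from -0.37 to 0.33 over the 9 genes. Mdm2 had the smallest p among them in controls, at 4.63, 4.69 and 4.63 in knockout cells against 4.92, 4.75 and 4.76 in wild-type cells, a difference of -0.16 (95% interval -0.37 to 0.05, unadjusted p = 0.122, adjusted p = 1). It was the 1 gene of the 9 whose genotypes did not overlap in controls, where 5.02% of all genes did not, and in low-oxygen and starved cells 0 of the 9 were apart, against 4.4% and 5.21% of all genes. Trp53 differed by 0.19 in controls, -0.18 at low oxygen and 0.02 when starved, with intervals of -0.37 to 0.74, -0.73 to 0.38 and -0.54 to 0.57.

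The response to stress was also not distinguishable between genotypes in these genes. The low oxygen response of knockout minus wild type was between -0.36 (Trp53) and 0.13 (Mdm2), with 95% intervals from -1.15 to 0.52, and the starvation response between -0.17 (Trp53) and 0.22 (Mdm2), with intervals from -0.95 to 0.63. By limma, 0 of the 9 genes passed in any of these comparisons. An unadjusted p under 0.05 was found for 0 of the 9, and for between 216 and 508 of all genes (1.04% to 2.44%). Over all genes 0% passed in each comparison of genotypes within a condition and of responses, and 0.024% when averaged. Summed macrophage marker signal was 333 to 372 in knockout cells against 373 to 405 in wild-type cells at low oxygen, 281 to 317 against 339 to 372 when starved and 267 to 301 against 318 to 363 in controls. Averaged over conditions, 1 of the 8 markers was lower past the threshold in knockout cells and 0 were higher. Their averaged log2 differences ran from -1.03 to 0.03, with a median of -0.04.

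Other genes of the pathway were counted from a list of 37 further p53 targets, of which 35 were tested. At low oxygen, 17 were lower and 7 higher past the threshold in knockout cells, and 14 lower and 5 higher in wild-type cells. That is 48.6% lower in knockout cells and 40% in wild-type cells, against 18.3% and 18.1% of all genes, and 20% and 14.3% higher, against 21.4% and 20.5% of all genes. The 35 include Perp, which was well above background at low oxygen in 1 knockout and 0 wild-type samples, and in 0 controls. A call of Perp as higher at low oxygen would rest on control values that were not well above background. Ddit4, which inhibits the growth kinase complex mTORC1 and is also a target of hypoxia-inducible factors, rose 7.52-fold in knockout cells and 7.19-fold in wild-type cells. Gtse1, which binds p53 and moves it out of the nucleus, read -2.52, -2.6 and -2.6 in knockout cells at low oxygen against -0.79, -0.61 and -0.54 in controls, 3.80-fold lower, and was 3.42-fold lower in wild type. Plk3, a stress-activated kinase, was 2.84-fold lower in knockout cells and 3.38-fold lower in wild-type cells. Gdf15, a secreted stress cytokine, was 3.75-fold and 3.83-fold lower. Limma adjusted p-values for these 4 genes were between 1.93e-09 and 1.16e-07. The median log2 change over the 35 genes was -0.32 in knockout cells and -0.19 in wild-type cells, against 0.03 over all genes in each.

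In starved knockout cells 8 of the 35 targets were higher and 1 lower past the threshold, and in starved wild-type cells 6 were higher and 2 lower. The higher ones are 22.9% and 17.1% of the list, against 7.14% and 6.49% of all genes, and the lower ones 2.86% and 5.71%, against 6.38% and 6.02% of all genes. Cdkn1a, the cell cycle inhibitor p21 and a classical p53 target, read 4.61, 4.43 and 4.47 in starved knockout cells against 3.85, 3.71 and 3.46 in controls, and rose 1.78-fold (adjusted p = 0.00161). It rose 1.81-fold in starved wild-type cells (adjusted p = 0.00133), with values of 4.67, 4.54 and 4.29 against 3.70, 3.70 and 3.52. At low oxygen Cdkn1a was lower past the threshold in knockout cells, by 0.40 (adjusted p = 0.0452), and its difference in wild-type cells was -0.30 (adjusted p = 0.134). Steap3, a metal reductase, rose 1.59-fold in starved knockout cells and 1.84-fold in starved wild-type cells, whereas Fas, a death receptor, was 1.85-fold and 1.67-fold lower. Perp, a membrane protein of cell contacts, was not well above background in any control sample and was so in 1 of 3 starved knockout and 2 of 3 starved wild-type samples, so no fold change is given for it. Its measured signal was -5.38, -6.21 and -6.46 in starved knockout cells against -7.44, -8.37 and -8.37 in controls. Perp met the filter through stressed samples alone. It is among the higher targets counted above in both genotypes, and those calls rest on control values that were not well above background. The count of 8 was 5 without replicate 2 of the knockout controls and 5 with knockout control 3, wild-type control 1 and starved wild-type sample 3 left out together, and the count of 6 was 3 without those samples, without wild-type control 1 or 3 and without starved wild-type sample 1. The 1 lower target was 2 without knockout control 3 and 2 without those 3 samples, and the 2 lower targets were 1 without wild-type control 2 or 3 or starved wild-type sample 1 or 2.

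**Figure D3:**
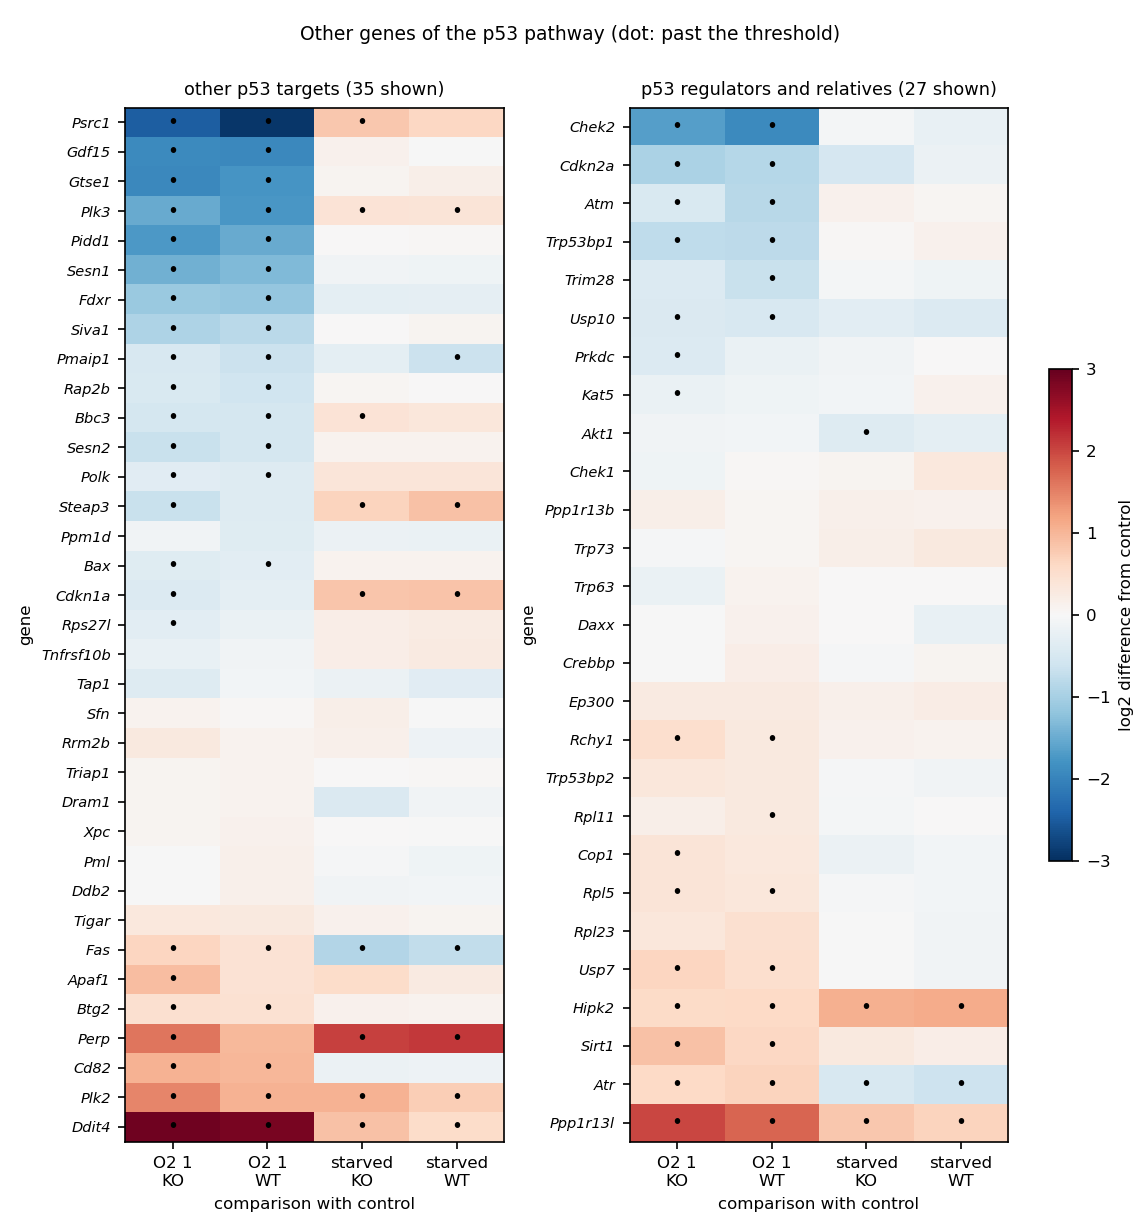
Log2 difference from control (colour, from -3 to 3) of 35 further p53 targets (left) and 27 of the regulators and relatives of p53 (right), as rows, in 4 comparisons as columns (oxygen 1 and starved, knockout and wild type); dots mark a limma adjusted p under 0.05. At oxygen 1 the left panel holds 17 genes lower and 7 higher past the threshold in knockout cells, and when starved 1 lower and 8 higher. The 8 include Perp, which was not well above background in any control sample.

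A second list held 28 genes that act on p53 or are related to it, and all were tested. At low oxygen, 9 were higher in both genotypes, and 7 were lower in knockout cells and 6 in wild-type cells. The higher ones are 32.1% of the list, against 21.4% of all genes in knockout cells and 20.5% in wild-type cells, and the lower ones 25% and 21.4%, against 18.3% and 18.1% of all genes. Chek2, a kinase that phosphorylates p53 after DNA damage, read -3.57, -3.65 and -3.05 in knockout cells at low oxygen against -1.71, -1.70 and -1.91 in controls, 3.14-fold lower (adjusted p = 8.87e-07). Chek2 was 3.76-fold lower in wild-type cells (adjusted p = 2.16e-07), and Trp53bp1, a DNA repair protein that binds p53, was 1.69-fold and 1.71-fold lower in knockout and wild-type cells. Ppp1r13l, an inhibitor of p53, was 4.02-fold higher in knockout cells (adjusted p = 2.3e-07) and 3.36-fold higher in wild-type cells (adjusted p = 9.72e-07). The count of 7 lower was 4 without replicate 3 of the knockout at low oxygen, and the count of 6 was 3 without wild-type control 1 or 2.

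When starved, 2 of the 28 were higher in both genotypes, and 2 were lower in knockout cells and 1 in wild-type cells. These counts are near the shares of all genes, at 7.14% of the list higher against 7.14% and 6.49% of all genes, and 7.14% and 3.57% lower against 6.38% and 6.02%. Hipk2, a kinase that phosphorylates p53, rose 2.10-fold in knockout cells (adjusted p = 0.00181) and 2.17-fold in wild-type cells (adjusted p = 0.00132), and Ppp1r13l rose 1.76-fold and 1.58-fold. Atr, the kinase of replication stress, was 1.40-fold lower in knockout cells (adjusted p = 0.0249) and 1.53-fold lower in wild-type cells (adjusted p = 0.00626), and was higher at low oxygen in both, 1.51-fold and 1.6-fold. Akt1 was lower in starved knockout cells, by 0.38 (adjusted p = 0.0338), with a difference of -0.28 in wild-type cells (adjusted p = 0.126). The lower calls in knockout cells numbered 0 or 1 without any 1 of the 6 samples compared and 0 with the same 3 samples left out together, and the higher calls in wild-type cells 1 without replicate 2 of the controls. Between genotypes, 0 of the 35 targets and 0 of the 28 regulators passed the threshold in any condition.

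For each gene past the threshold, the genes with the closest pattern were those with the smallest root mean square difference between the 6 group means, after each gene was centred on its own mean. The search covered 11387 named genes that were well above background in all 18 samples. Closest to Mdm2 were Parp16, Vim and H2bc21, at 0.045 to 0.048 log2 units, where the median gene differed by 0.38. Phlda3 was most like Zfp365, Qpctl and Cipc (0.071 to 0.11, median 0.80), and Ccng1 most like Micall2, Gcsh and Nrp1 (0.065 to 0.068). Trp53inp1 was close to Smim1 and Tmem144 (0.058 and 0.064), and Zmat3 to Btbd6, Fam149a and Pdp2 (0.036 to 0.062). Aen was closest to Letmd1, Traf5 and Mccc1 (0.034 to 0.038), and Mdm4 to Xrcc3, Wdhd1 and Atp13a2 (0.031 to 0.037). None of these genes is on the other lists used here, and the likeness describes 6 group means of the same 18 samples.

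**Figure D4:**
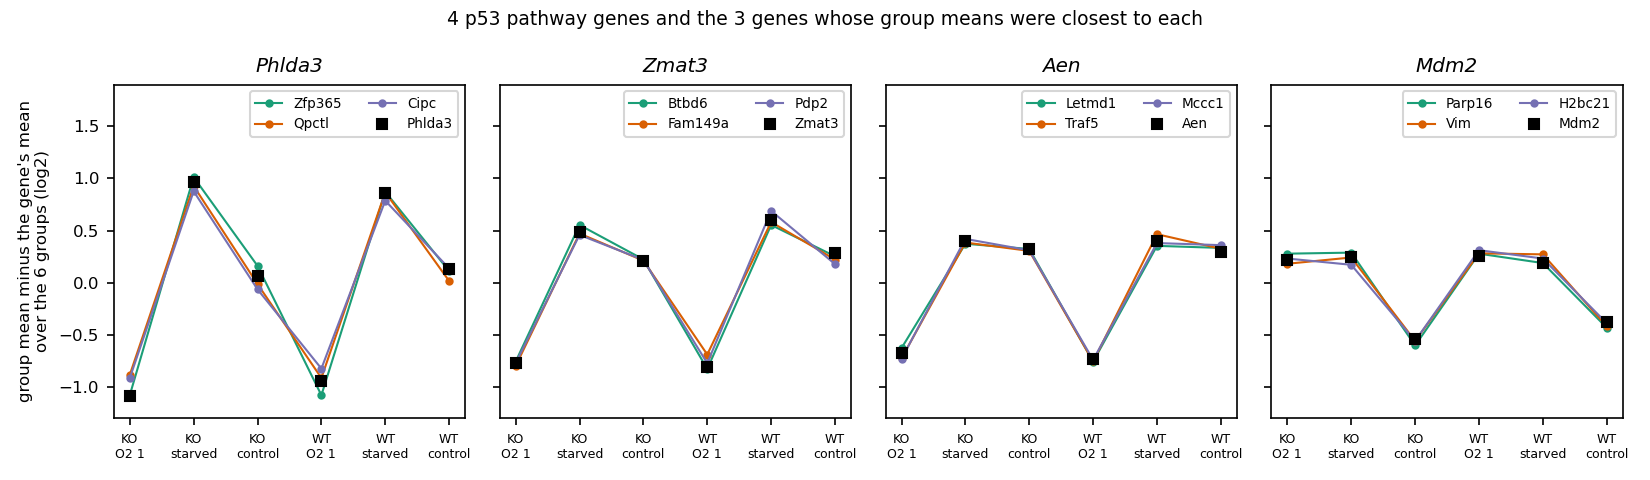
Group means minus each gene's mean over the 6 groups (y axis, log2 units) by group (x axis) for Phlda3, Zmat3, Aen and Mdm2 (black squares) and the 3 genes closest to each (coloured lines, which join groups for reading only). The genes shown with Aen and Mdm2 differ from them by root mean squares of 0.034 to 0.048 log2 units.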

How the data were processed

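Expression was measured on 20 single-colour Agilent arrays on 5 slides, scanned on 1 day, for 18 samples; 2 knockout samples had 2 arrays each, which were averaged. Per the file headers, the deposited values are spot intensities, background-subtracted and detrended by Agilent Feature Extraction 10.7.3.1, on an array design built on mm9. The authors also deposited a table of log2 values, used as an alternative. Limma is named in the submitters' processing notes.

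Values were log2 processed signal minus the 75th percentile of each array (933.8 to 1556), without spots flagged as outliers. A probe was tested when well above background in at least 3 of 18 samples with at least 2 values in each group, and the brightest probe stood for a gene. Of 39429 probes, 26055 (66.1%) matched a RefSeq symbol by accession. Probes without a symbol stood under their own transcript name and are counted among all genes. Of the 20812 tested, 14007 had a symbol. A model of 6 group means was fitted to 20812 genes with limma 3.58.1 in R 4.3.3 (residual degrees of freedom 12, prior 2.48); p-values are two-sided and adjusted by Benjamini and Hochberg over all genes, with a threshold of 0.05. Missing values (0.111%) were left out of each fit. The fit was tested on simulated data. Errors on differences are SE, and intervals are 95% intervals. The number of arrays limits the precision.

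The genes and lists were chosen with earlier results of these data known. All 10 genes are named; of each list, the 4 genes with the smallest adjusted p in wild type at low oxygen and when starved are named. A few genes that these rules would name are not reported here. Alternatives were quantile normalization, normexp (offset 50), other filters on dim probes, the mean of all probes of a gene, the first array alone, the authors' table, slide and replicate number as blocks, and leaving out samples. Normexp was run on the median signal of each spot, not the mean planned. Replicate numbers come from the sample titles. Deviations from the group means of same-numbered samples correlated at 0.15, 0.18 and 0.16 between knockout cells at low oxygen and starved, and in every other pair of conditions at least 1 number fell below 0.1.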

Additional observations from a re-analysis of the deposited data

How the results depend on the processing

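The differences of the 9 tested genes in 6 comparisons (low oxygen, starvation, and low oxygen against starvation, in each genotype) gave 54 results and 864 values under the alternatives. Of these, 833 kept their direction and their side of the threshold or were uncalled in both, 21 lost their call, 10 gained one and 0 called values turned direction; 21 uncalled differences changed sign. All losses but 1 (Ccng1 in starved wild-type cells with no filter on dim probes) came from normexp background correction or from leaving out samples of wild-type starvation; the cause was not tested. In starved knockout cells the genes higher past the threshold numbered 4 and were 2 with normexp, and those lower numbered 0 and were 1 (Mdm4) with the mean of all probes, 1 with the replicate block and 0 to 1 when each sample was left out in turn. In starved wild-type cells the 4 higher genes were 0 with normexp, 2 with knockout control 3, wild-type control 1 and starved wild-type sample 3 left out together, and 2 to 3 when each sample was left out in turn.

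Whether same-numbered samples share a mouse is not given, and their deviations correlated between -0.33 and 0.29 over 27 pairs, which does not settle it. With the replicate block, Mdm4 differed between low oxygen and starvation by -0.32 in knockout cells (limma adjusted p = 0.0386) and by -0.32 in wild type (adjusted p = 0.0375). In starved knockout cells it differed from controls by -0.36 (adjusted p = 0.0491). The block changed no other call of the 9 genes. Over all genes, calls numbered 4242 with normexp against 8268 at low oxygen and 909 against 2812 when starved in knockout cells, and 3940 against 8040 and 1136 against 2602 in wild-type cells, and 1702 without replicate 1 of the starved wild-type cells. Normexp moved the median of all genes in starved wild-type cells to 0.19 against 0.02, and the share of calls that were higher to 65.1% against 51.9%. It also gave 11 lower targets against 17 and 4 lower regulators against 7 in knockout cells at low oxygen, 3 higher targets against 5 and 5 higher regulators against 9 in wild-type cells at low oxygen, and 3 against 8 and 2 against 6 higher targets in starved knockout and wild-type cells. Lower regulators in starved knockout cells (2) were 0 with normexp, 0 with no filter on dim probes and 1 with slide as a block; lower targets there (1) were 2 with the replicate block, and lower regulators in starved wild-type cells (1) were 2 with normexp and 2 with the replicate block. The mean of both probes of Mdm4 called it lower at low oxygen than when starved in wild type (-0.33, adjusted p = 0.00963). Dim probes limit what can be seen of Eda2r and Perp.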
